A study of Saccharomyces cerevisiae with 6 samples.

Results

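The genes described here encode the proteins of the large subunit of the cytosolic ribosome of budding yeast, including the acidic P proteins of its stalk. They were taken by name: every probe set whose gene symbol in the platform annotation is RPL with a number and an optional A or B, or RPP0, RPP1A, RPP1B, RPP2A or RPP2B, with the brightest probe set (highest mean over the 6 arrays) standing for a gene that had several. The yeast gene table used here holds 81 such genes. Of these, 75 had a probe set under their own symbol, out of 5449 genes tested in all. The other 6 were not analysed here, and none of the 75 was at or below the background level of 2.13 (log2, the 95th percentile of the mean levels of probe sets whose symbol was not found in the yeast table).

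Total RNA was measured on 6 Affymetrix arrays, 3 from wild type cultures of strain W303-1A bar1∆ and 3 from cultures of strain WNPL3B1-2B, in which the KanMX marker replaces NPL3. Both strains are haploid MATa of the W303 background, carry bar1ΔHphMX (the marker in place of BAR1) and the alleles ura3-1, his3-11,15, trp1-1, can1-100 and ade2-1 together with a mutant LEU2 allele that the labels spell identically in both, and were harvested at mid-log growth in rich medium with glucose. The strains thus differ by npl3::KanMX alone as far as the labels show. On the arrays the 90 genes of chromosome I also had a median log2 difference of 0.83, deletion minus wild type, against 0.01 over all genes. The part of this chromosome-wide difference in the results that follow was not tested. The labels call the arrays of a group biological replicates and do not say whether the deletion cultures came from more than 1 clone. The comparison asks how transcript levels differ in cells without Npl3, a protein that binds RNA and resembles both SR proteins and hnRNPs.

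The large subunit holds the peptidyl transferase centre, which joins amino acids, and the tunnel through which the new protein leaves. In budding yeast many of its proteins are encoded by pairs of paralogous genes, named A and B, which are left from an ancient duplication of the genome and often encode nearly or fully identical proteins. Ribosomal protein genes are transcribed together at very high rates in growing cells and hold a large part of the introns of this intron-poor genome. Npl3 is known to take part in the splicing of many of their pre-mRNAs. The arrays measured transcript levels, and spliced and unspliced forms of a transcript were not told apart.

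The strain labels were checked first. NPL3 stood at 10.75, 11.37 and 11.33 (log2) in wild type and at 3.80, 4.04 and 4.04 in the deletion, and it fell by 7.19 (SE 0.16, limma adjusted p = 1.2e-07). BAR1 was below background on every array. Of the a-specific genes, STE2 read 11.14 ± 0.01 in wild type and 11.18 ± 0.03 in the deletion (mean ± SD, n = 3 arrays each), while MFA1 fell by 0.88, MFA2 fell by 0.62 and STE6 fell by 0.34. Of the alpha-specific genes, STE3 read 4.35 ± 0.13 and 4.41 ± 0.11, MF(ALPHA)1 fell by 0.89, MF(ALPHA)2 fell by 0.21 and SAG1 rose by 0.48, to 7.86. Array controls moved with the genotype. The spiked hybridization controls had a mean of 9.31 ± 0.08 on the wild type arrays and of 8.67 ± 0.60 on the deletion arrays, where npl3 deletion replicate 1 was the lowest at 7.99. The labelling controls lay the other way, at 4.10 ± 0.12 and 4.80 ± 0.20, and for neither kind did the groups overlap. In 8 of 8 yeast control genes with probe sets near both transcript ends, the 5′ signal relative to the 3′ signal was greater in the deletion (median 0.37, no overlap in any). The part of these differences in the results that follow was not tested.

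Large-subunit genes differed little between the strains. Across all genes, 61.8% passed the test (limma, two-sided, Benjamini-Hochberg adjusted p under 0.05), 32.9% higher and 28.9% lower in the deletion. Among the 75 large-subunit genes 7 did (9.33%), 6 lower and 1 higher. Their median difference was -0.0044 on the log2 scale and their median absolute difference 0.04, against 0.01 and 0.23 over all genes, and 66 of 75 differed by less than 1.1-fold (88%, against 32.5% of all genes). The 2 groups of arrays did not overlap for 17 of the 75 genes (22.7%, against 68.8% of all genes). In bulk RNA, fewer cells that express a gene and less RNA per cell cannot be told apart.

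These genes are among the brightest on the array. The mean level of the median member was 12.22, above that of 98.2% of all genes, and 71 of 75 lay above 11 (log2). Of the 62 genes outside the list that were at least as bright as the median member, 12 passed the test (19.4%), also a smaller share than over all genes. Many of the 62 are small-subunit ribosomal protein genes, and the share without these was not taken. Small differences were not particular to the list, as 79.2% of the 53 small-subunit genes also differed by less than 1.1-fold. Of all 100 genes that bright, members and small-subunit genes included, 90% differed by less than 1.1-fold, with a median absolute difference of 0.05. Brightness and being a ribosomal protein gene were thus not separated. Whether bright signals are compressed on these arrays was not tested. The SE of a difference had a median of 0.05 and ran from 0.04 to 0.11. The 95% intervals of the 68 genes that did not pass reached at most from -0.24 to 0.46, a fold of 1.18 down and 1.37 up.

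**Figure D1:**
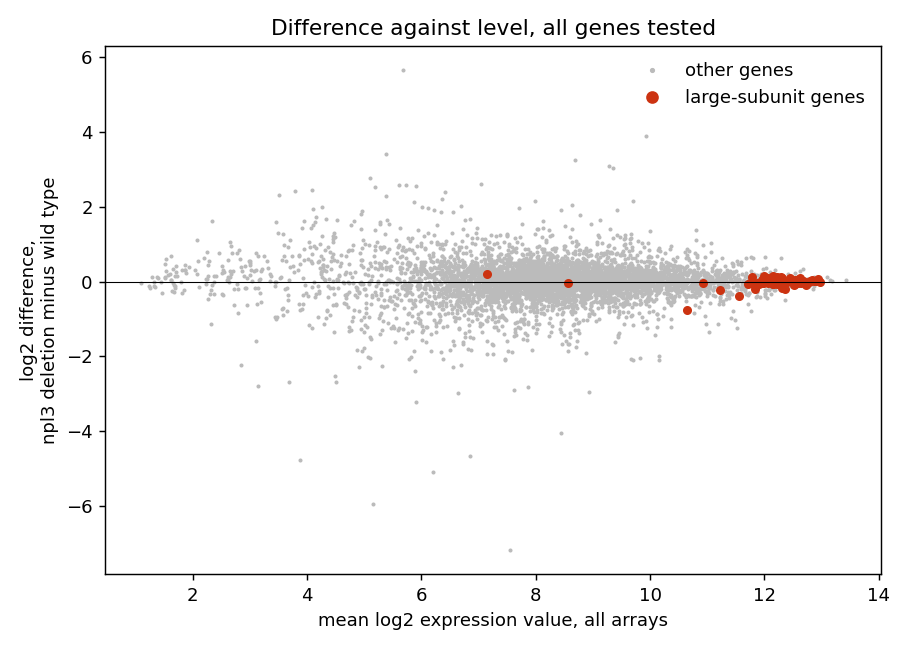
Each point is 1 gene, with its mean log2 expression value over the 6 arrays on the horizontal axis and the log2 difference, npl3 deletion minus wild type, on the vertical axis (grey, other genes; red, the 75 large-subunit genes). Of the large-subunit genes, 71 lie at a mean above 11, and 66 differ by less than 1.1-fold.

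On the probe sets that stood for the genes, the largest fall was that of RPL22B (YFL034C-A, chromosome VI). It encodes the minor form of a protein at the rim of the exit tunnel, and that protein is known in yeast to repress the splicing of the RPL22B transcript. It read 11.12, 10.94 and 11.01 in wild type and 10.21, 10.25 and 10.33 in the deletion. Every deletion array was below every wild type array by more than the spread of either group. It fell by 0.76 (SE 0.06, limma adjusted p = 3.1e-05), to 59.0% of the wild type level.

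RPL26B (YGR034W, chromosome VII) encodes another protein near the tunnel exit. Its values were 11.81, 11.77 and 11.69 in wild type and 11.17, 11.44 and 11.46 in the deletion, with npl3 deletion replicate 1 below the other two. It fell by 0.40 (SE 0.08, adjusted p = 0.0043), to 75.8% of the wild type level, and fell by 0.30 without that array. RPL4B (YDR012W, chromosome IV), which encodes a protein that lines the narrowest part of the tunnel, read 11.32, 11.36 and 11.33 in wild type and 10.99, 11.11 and 11.20 in the deletion. The groups did not overlap. RPL4B fell by 0.24 (SE 0.06, adjusted p = 0.011), to 84.8% of the wild type level.

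The other falls were smaller. RPL27B (YDR471W, chromosome IV) read 11.98, 11.93 and 11.91 in wild type and 11.64, 11.80 and 11.80 in the deletion, and fell by 0.19 (SE 0.06, adjusted p = 0.023). RPL21B (YPL079W, chromosome XVI) read 12.46, 12.45 and 12.43 against 12.23, 12.29 and 12.26, and fell by 0.19 (SE 0.04, adjusted p = 0.0067). Both encode structural proteins of the subunit. RPL15A (YLR029C, chromosome XII), which encodes an essential structural protein, read 12.43, 12.36 and 12.37 in wild type and 12.17, 12.27 and 12.19 in the deletion, and fell by 0.18 (SE 0.05, adjusted p = 0.015). In each of these 3 genes the deletion arrays lay below all wild type arrays.

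RPL43B (YJR094W-A, chromosome X), which encodes a small zinc-binding protein, was the single gene of the list that rose. It read 12.11, 12.04 and 12.08 in wild type and 12.20, 12.23 and 12.23 in the deletion, a rise of 0.14 (SE 0.04, adjusted p = 0.022), or 1.11-fold. The groups did not overlap.

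A further 10 genes had groups that did not overlap without passing the test. RPL16A, whose protein is a structural part of the subunit, read 12.60, 12.55 and 12.53 in wild type and 12.48, 12.47 and 12.45 in the deletion (difference -0.09, SE 0.04, adjusted p = 0.097). RPL13B read 12.23, 12.19 and 12.22 against 12.28, 12.32 and 12.31 (0.09, SE 0.04, adjusted p = 0.091), and RPL4A read 12.79, 12.75 and 12.75 against 12.68, 12.69 and 12.67 (-0.09, SE 0.04, adjusted p = 0.11). Their gaps were narrow, and of the 10, RPL16A, RPL17B and RPL4A were lower in the deletion and the others, RPL13B, RPL24A, RPL26A, RPL36B, RPL40B, RPL43A and RPP2A, higher.

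Of the 7 calls, those of RPL22B, RPL26B, RPL4B and RPL21B held with each array left out in turn. RPL27B missed the threshold without wild type replicate 1 (adjusted p = 0.061), wild type replicate 2 (0.051) or npl3 deletion replicate 1 (0.056), RPL15A without npl3 deletion replicate 3 (0.0505), and RPL43B without wild type replicate 2 or 3 or npl3 deletion replicate 2 or 3 (0.061 to 0.068).

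**Figure D2:**
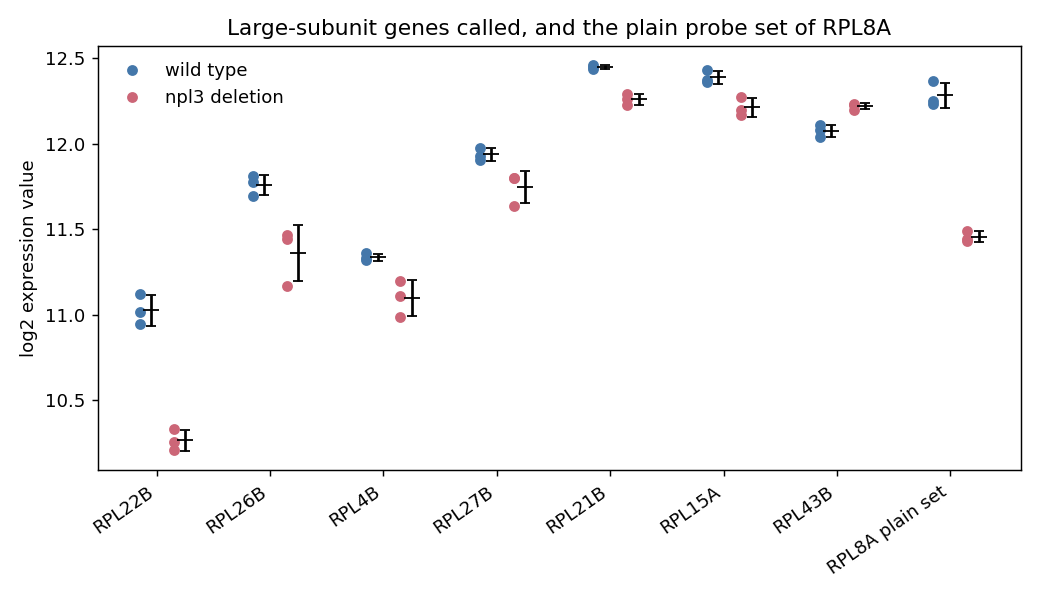
Log2 expression values of the 7 large-subunit genes that passed the test and of the plain probe set of RPL8A on each array (points; blue, wild type; red, npl3 deletion), with the group mean ± SD of 3 arrays as a black bar. For all 8 the groups do not overlap, and the gaps of RPL22B (fell by 0.76) and of RPL8A (fell by 0.83) are the widest.

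RPL8A (YHL033C) is read differently by its 2 probe sets. The brighter of them is marked s, meaning that it can match several transcripts, and it stood for the gene in the counts above. It read 12.36, 12.33 and 12.27 in wild type and 12.23, 12.33 and 12.33 in the deletion, a difference of -0.02 (SE 0.05, adjusted p = 0.73). The plain set read 12.37, 12.25 and 12.23 in wild type and 11.44, 11.49 and 11.43 in the deletion. On that set RPL8A fell by 0.83 (SE 0.05, limma adjusted p = 1.1e-05 in a fit of all 5498 probe sets of yeast genes, of which 61.7% passed), to 56.4% of the wild type level. The other copy, RPL8B, read by a plain set, differed by 0.04 (SE 0.06, adjusted p = 0.58). Both genes encode a protein that joins early precursors of the subunit, and neither has an intron.

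RPL11B, which encodes a protein that binds the 5S ribosomal RNA, also differed between its sets. Its s set gave a difference of 0.01 (SE 0.05) and its plain set, at 12.39, 12.34 and 12.32 in wild type and 12.43, 12.52 and 12.53 in the deletion, a rise of 0.15 (SE 0.05, adjusted p = 0.032 in the fit of all probe sets). For the other 5 genes with 2 sets (RPL2A, RPL14B, RPL18B, RPL20B and RPL21A) neither set passed. In all, 12 of the 75 genes were read by an s set. Of the 12, 0 passed, and of the 63 read by a plain set 7 did, where 61.8% of all genes passed. The difference between the kinds of set was not tested. For 6 of the 12 the other copy of the pair was not measured by a probe set of its own. The values of any of the 12 may hold signal of both copies, since an s set can match several transcripts.

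**Figure D3:**
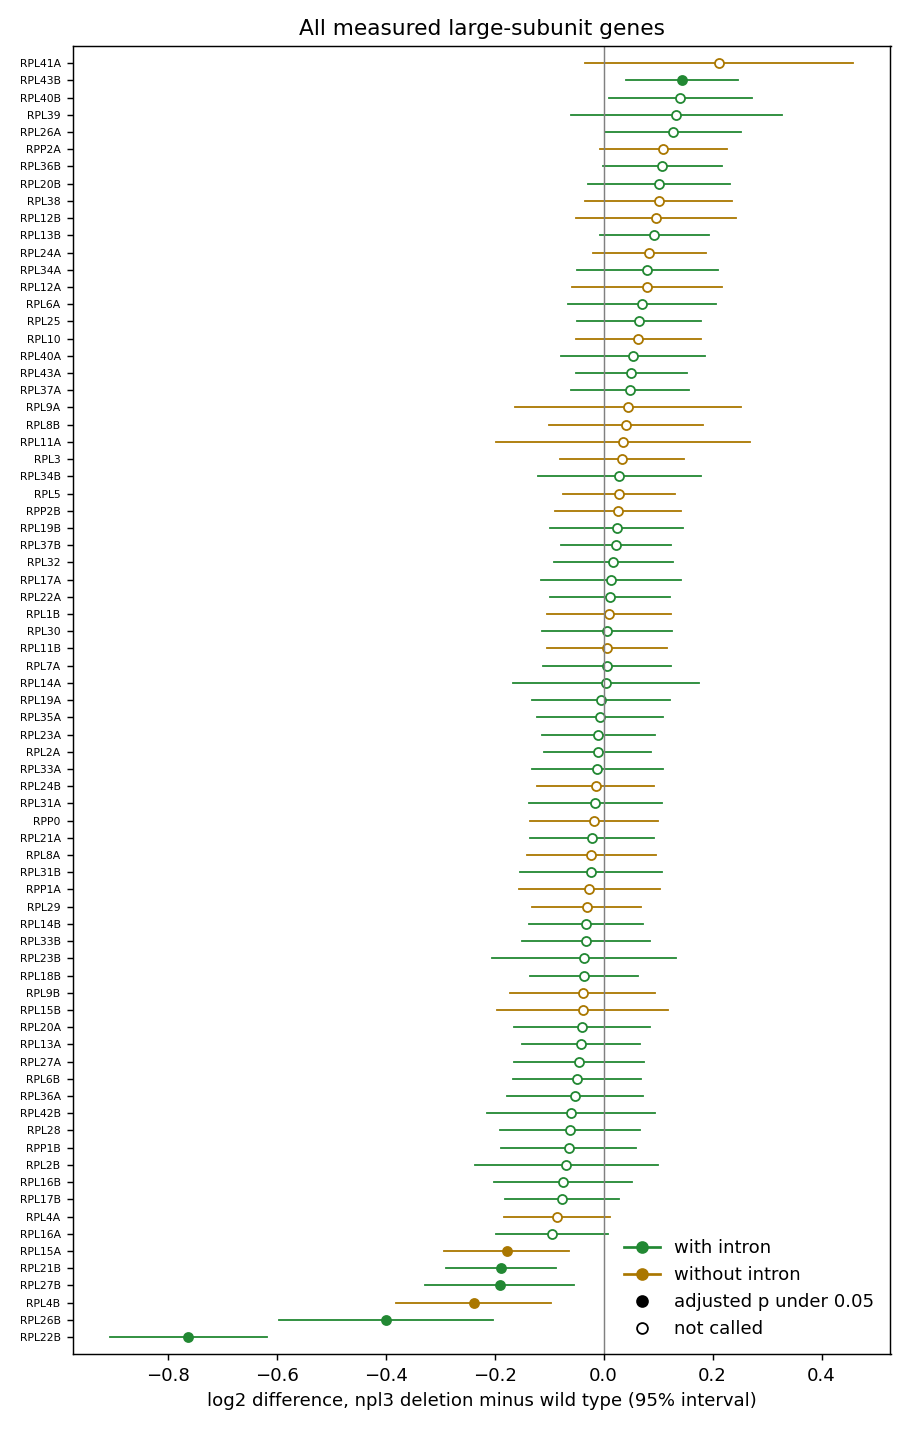
Log2 difference, npl3 deletion minus wild type, of each of the 75 genes with its 95% interval (limma), sorted by size (green, with an intron; brown, without; filled points passed at an adjusted p under 0.05, open points did not). The 68 open points lie between -0.09 and 0.21.

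Of 15 measured genes for the exit tunnel and its rim, 3 fell (RPL22B, RPL26B and RPL4B), 0 rose and 12 did not pass, with a median of -0.01. Those 3 are 20% of the group, against 28.9% of all genes that fell. In that group RPL39, a very small protein inside the tunnel, read 11.69, 11.78 and 11.66 in wild type and 11.66, 11.89 and 11.97 in the deletion (difference 0.13, SE 0.08, adjusted p = 0.20). RPL25, the docking protein at the tunnel exit, differed by 0.07 (SE 0.05, adjusted p = 0.27).

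None of the 6 measured genes for the peptidyl transferase centre and the transfer RNA sites passed, where 61.8% of all genes did. Their differences ran from -0.07 to 0.06. RPL3, a protein that reaches into that centre, read 12.81 ± 0.02 in wild type and 12.85 ± 0.06 in the deletion. RPL10, which joins the subunit late in its maturation, read 12.91 ± 0.01 and 12.97 ± 0.06, and RPL28, mutations of which give resistance to cycloheximide, 12.57 ± 0.04 and 12.51 ± 0.08 (n = 3 arrays each). The 3 genes of the 5S ribonucleoprotein, RPL5, RPL11A and RPL11B, did not pass either on the sets that stood for them, with differences from 0.01 to 0.04.

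The P stalk, which recruits translation factors, was likewise within 0.11. Of its 7 genes, with the RPL12 pair of its base included, 0 passed (61.8% of all genes did) and the median was 0.03. The scaffold gene RPP0 differed by -0.02 (SE 0.05, adjusted p = 0.78). RPP2A had the widest difference of the 7, from 12.17 ± 0.06 to 12.28 ± 0.04 (0.11, SE 0.05, adjusted p = 0.090).

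On the face towards the small subunit, 0 of 5 measured genes passed, against 61.8% of all genes. RPL41A, which encodes a very short basic peptide and is read by an s set, was the dimmest gene of the list and had its largest positive difference. It read 7.10, 7.13 and 6.91 in wild type and 7.04, 7.42 and 7.32 in the deletion (0.21, SE 0.11, adjusted p = 0.12), and the groups overlapped through npl3 deletion replicate 1. Of the genes whose product is made as a fusion to ubiquitin, RPL40B read 11.95, 11.95 and 11.87 against 11.98, 12.14 and 12.07 without overlap (0.14, SE 0.06, adjusted p = 0.061), and RPL40A differed by 0.05 (SE 0.06).

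None of the 11 single-copy genes passed (61.8% of all genes did), and their differences ran from -0.06 (RPL28) to 0.13 (RPL39). RPL38 differed by 0.10 (SE 0.06), RPL5 by 0.03, RPL32 by 0.02, RPL30 by 0.01 and RPL29 by -0.03 (SE 0.04 to 0.05 for these 4). RPL30 protein is known to bind its own pre-mRNA and to block its splicing.

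For 29 pairs both copies were measured. Of the A copies 1 of 29 passed the test, RPL15A, which fell. Of the B copies 6 of 29 did, 5 lower and 1 higher. Across all genes 61.8% passed. No gene of these pairs passed together with its other copy. The difference between A and B copies was not tested, and the counts depend on the probe sets. On plain sets the A copy RPL8A also fell and the B copy RPL11B also rose. The log2 value of copy A minus that of copy B was taken on each array and then compared between the strains. Its sign within an array carries no order of the copies, since they are read by different probes. The groups did not overlap for 14 of 29 pairs (48.3%), against 11 of 21 pairs of small-subunit genes (52.4%). In 9 of the 14, copy A stood higher relative to copy B in the deletion, and in 5 lower. With 3 arrays against 3, the exact permutation test (two-sided) cannot give a p below 0.1, so none of these can pass 0.05 by itself.

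On the brightest probe sets, RPL22 and RPL26 were the 2 most unequal pairs. RPL22A read 12.27, 12.19 and 12.20 in wild type and 12.21, 12.21 and 12.27 in the deletion (difference 0.01, SE 0.05, adjusted p = 0.85), while RPL22B fell. RPL22A minus RPL22B was 1.15, 1.24 and 1.19 in wild type and 2.00, 1.96 and 1.94 in the deletion, an unequal change of 0.77 (SE 0.03), or 1.71-fold. RPL26A read 12.29, 12.18 and 12.21 against 12.30, 12.41 and 12.36 (0.13, SE 0.05, adjusted p = 0.070) and did not pass. RPL26A minus RPL26B moved from 0.48, 0.40 and 0.51 to 1.13, 0.96 and 0.89, an unequal change of 0.53 (SE 0.08). In both pairs every deletion array lay above every wild type array (exact permutation p = 0.1 for each).

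The next pairs by size on the brightest sets lay within 0.17. The unequal change, copy A minus copy B, was 0.17 for RPL21, 0.15 for RPL4 and 0.15 for RPL27, where copy B fell and copy A did not pass (differences of -0.02 for RPL21A, -0.09 for RPL4A and -0.05 for RPL27A). The A copies of RPL21 and RPL4 are read by s sets. On the plain set of RPL21A the unequal change was 0.15 (SE 0.11) and the groups overlapped. It was -0.16 for RPL36, which is -0.05 for RPL36A and 0.11 for RPL36B, and -0.14 for RPL20, which is -0.04 for RPL20A and 0.10 for RPL20B, with neither copy past the test. For RPL15, where RPL15A fell and RPL15B differed by -0.04, it was -0.14, with overlapping groups (exact permutation p = 0.2). In 19 of 29 pairs the unequal change was under 0.1. Several pairs without a called copy still separated the groups at a small size. RPL13A minus RPL13B differed by -0.13 (SE 0.02) and RPL6A minus RPL6B by 0.12 (SE 0.02). RPL24A minus RPL24B differed by 0.10 (SE 0.02). The smallest unequal changes of the 29 were 0.01 for RPL31 (SE 0.02), -0.02 for RPL12 (SE 0.05) and -0.02 for RPL16 (SE 0.05), with overlapping groups.

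The s sets matter most for RPL8. On the brightest sets RPL8A minus RPL8B differed by -0.06 between the strains. On the plain sets it was 0.19, 0.16 and 0.15 in wild type and -0.61, -0.70 and -0.80 in the deletion, an unequal change of -0.87 (SE 0.05, exact permutation p = 0.1, two-sided), or 1.83-fold, with copy A the lower. This is wider than that of RPL22, and in the opposite direction by copy.

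**Figure D4:**
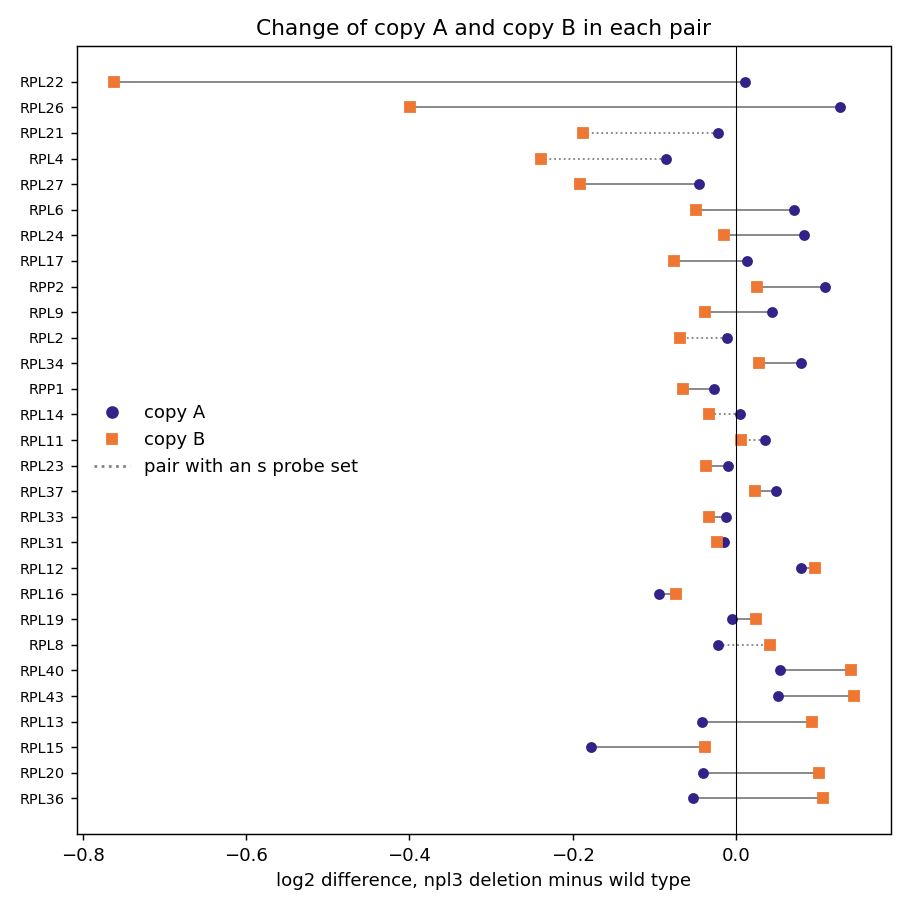
Log2 difference, npl3 deletion minus wild type, of copy A (circles) and copy B (squares) for the 29 pairs with both copies measured on their brightest probe sets, sorted by the change of A minus that of B. Dotted lines mark pairs in which a probe set can match several transcripts; RPL22 and RPL26 are the widest, with copy B lower by 0.77 and 0.53 relative to copy A.

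Falls were found among genes with and without an intron. Of 50 measured genes with an intron, 5 passed (10%), 4 lower (RPL22B, RPL26B, RPL27B and RPL21B) and 1 higher (RPL43B). Their median difference was -0.01, with a range from -0.76 to 0.14. Of 25 without an intron, 2 passed (8%), both lower (RPL4B and RPL15A). Their median was 0.03, with a range from -0.24 to 0.21. Both shares lie under the 61.8% of all genes that passed, and the difference between the classes was not tested. On plain probe sets alone, where 62.4% of all genes passed, 5 of 47 genes with an intron did and 4 of 22 without. RPL8A and RPL11B joined the latter. The largest fall on a plain set in each class was thus RPL22B with an intron (fell by 0.76) and RPL8A without (fell by 0.83). The number without an intron was 4 without npl3 deletion replicate 1 and 1 without npl3 deletion replicate 3, and the number with an intron was 3 without wild type replicate 2.

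The arrays of a group were not equally placed. The median of the 75 genes, each taken relative to its wild type mean, was 0.03, -0.01 and -0.02 on the wild type arrays and -0.06, 0.02 and 0.04 on the deletion arrays. npl3 deletion replicate 1 held the lowest value of its group for 67 of 75 genes, and it was also the array with the lowest hybridization controls. Over all genes its median was 0.02. It was -0.04 over genes at least as bright as the median member and -0.08 over small-subunit ribosomal protein genes, so the low placement was not particular to the list. Without it, 10 large-subunit genes passed, 5 higher and 5 lower, where 57.0% of all genes did. The rises were then RPL41A (0.32), RPL39 (0.22), RPL40B (0.18), RPL38 and RPL43B (both 0.15), and RPL27B no longer passed. Without wild type replicate 1, 2 or 3 the number was 7, 5 and 6, where 60.3%, 56.5% and 55.1% of all genes passed. Without npl3 deletion replicate 2 or 3 it was 6 and 5, where 55.1% and 53.7% did. No gene rose without wild type replicate 2 or 3 or npl3 deletion replicate 2 or 3, since RPL43B then missed the threshold.

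How the spread was estimated also set the count. With a trended and robust variance 15 large-subunit genes passed, 8 of them lower and 7 higher (63.6% of all genes), and with array weights 12 passed (65.1% of all genes). The replicate number as a block left 5 (55.7% of all genes), and a threshold of 0.01 left RPL22B, RPL26B and RPL21B (46.2% of all genes). At each of these settings the share of large-subunit genes stayed under the share of all genes.

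**Figure D5:**
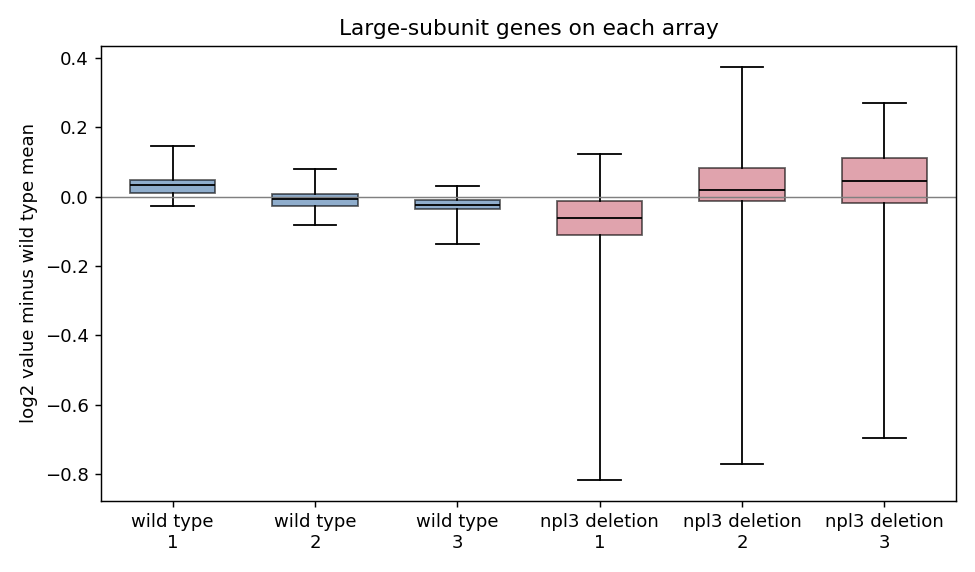
Log2 value of each of the 75 large-subunit genes minus its wild type mean, by array (blue, wild type; red, npl3 deletion); boxes span the quartiles, black lines are medians and whiskers reach the lowest and highest gene. The median of npl3 deletion replicate 1, -0.06, is the lowest of the 6 arrays.

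Genes that make, regulate or accompany these proteins were counted in the same fit. Of 53 small-subunit ribosomal protein genes, 11 passed (20.8%, against 61.8% of all genes), 9 lower and 2 higher, with a median of -0.02. RPS22B fell by 0.53 (SE 0.05) and RPS26B fell by 0.30 (SE 0.08), while RPS27A rose by 0.15 and RPS8B by 0.13. The rise of RPS27A missed the threshold without wild type replicate 2 or 3 or npl3 deletion replicate 2 or 3 (adjusted p from 0.051 to 0.067), and that of RPS8B when any array other than npl3 deletion replicate 3 was left out (0.064 to 0.11). The number of small-subunit genes was 7 without wild type replicate 2, 6 without wild type replicate 3 and 7 without npl3 deletion replicate 3. Between these 11 of 53 and the 7 of 75 of the large subunit no test of the difference was made.

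Among 40 factors of large-subunit assembly and export, 17 rose, 3 fell and 20 did not pass (50% passed, against 61.8% of all genes), with a median of 0.14. MAK16, an early pre-ribosomal factor, rose by 1.04 (SE 0.07). It lies on chromosome I, whose 90 genes had a median difference of 0.83, and no large-subunit protein gene lies there. RRS1, which helps to insert the 5S ribonucleoprotein, rose by 0.54 (SE 0.07). The maturation factors SDO1 and RIA1, which act together to release the anti-association factor Tif6, fell by 0.22 (SE 0.06) and fell by 0.18 (SE 0.06). The call of RIA1 was lost without wild type replicate 1 or 2 or npl3 deletion replicate 2 or 3 (adjusted p from 0.055 to 0.074).

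Each of 5 dedicated chaperones binds a single large-subunit protein or a few of them before assembly, and 4 of the 5 passed (80%, against 61.8% of all genes), a count too small to set the list apart. RRB1, the chaperone of Rpl3, fell by 0.20 (SE 0.05) and SYO1, that of Rpl5 and Rpl11, fell by 0.17 (SE 0.05). BCP1, that of Rpl23, rose by 0.31 (SE 0.06) and SQT1, that of Rpl10, rose by 0.16 (SE 0.04). The call of SYO1 was lost without wild type replicate 1 or npl3 deletion replicate 1 or 2 (adjusted p from 0.052 to 0.066). Of 12 regulators of ribosomal protein gene transcription, 3 fell, 1 rose and 8 did not pass (33.3% passed). The corepressor gene CRF1 fell by 0.94 (SE 0.10) from a low level of 3.94 (log2), DOT6, a repressor of ribosome biogenesis genes, fell by 0.60 (SE 0.09), and ESA1, a histone acetyltransferase gene, rose by 0.25 (SE 0.05).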

How the data were processed

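Per the submitters' processing notes, RMA and limma were used (versions not given in the sources used here). Each probe set has a single deposited log2 value for each array, and the authors' normalization was kept. Probe sets were matched to yeast genes (assembly R64) through the platform annotation: of 10928, 5498 matched, giving 5449 genes. RMA puts all arrays on a common distribution, which would hide a shift of most transcripts together.

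The 2 groups were compared by limma 3.58.1 under R 4.3.3 (lmFit, eBayes, no covariates, all 6 arrays, adjusted over 5449 genes). Python 3.11.15, SciPy 1.17.1, pandas 2.3.3 and matplotlib 3.10.9 served for the rest. Members, lists and classes were chosen with earlier results of these data known. Named genes were the members that passed, the 6 widest differences each way, the 8 most unequal pairs, single-copy genes and the 2 widest calls each way of every other list. Other genes and pairs that are named, RPL8A and RPL11B among them, were chosen after their values were seen.

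Intron classes came from known gene structure. All 27 genes classed without an intron have a span divisible by 3, as do 23 of 54 with one, so the span is only a partial check. The number of arrays limits the precision. On simulated data over 5449 genes, most of them given no change, the fit found 63% of log2 changes of 0.3 and 99% of those of 1. Of all its calls there, 7.43% were false. In the measured data 61.8% of genes passed, so the adjustment was less strict there than in the simulation. In the measured data the median pooled SD within groups was 0.07 over all genes and 0.05 over the large-subunit genes. How far the simulated shares apply to the measured data, or to the large-subunit genes alone, was not tested. The alternatives tried were leaving out each array, blocking on the replicate number, centring on the median, quantile normalization, leaving out dim genes, a robust variance with a trend, array weights, averaged probe sets, plain probe sets alone and a threshold of 0.01. No sequences or coordinates are given, since no sequence table was used here.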

Additional observations from a re-analysis of the deposited data

Results flagged for a closer look

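Both results come from probe sets that did not stand for their gene in the counts, because a brighter set existed. The plain set of RPL8A differed by -0.83 between the strains (deletion minus wild type, log2), where the brighter s set of the gene differed by -0.02. The plain set of RPL11B differed by 0.15, where its s set differed by 0.01. Which of the sets reads the gene alone was not tested, since no probe sequences were used here.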

How the results depend on the processing

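Replicate numbers gave no sign of paired arrays. Deviations of same-numbered arrays correlated at -0.14, -0.07 and -0.19 over genes, and those of differently numbered arrays at -0.01 to 0.18. Values this weak cannot settle whether arrays were handled in pairs. With the replicate block 5 large-subunit genes passed and 0 rose (3 with an intron; RPL27B and RPL43B lost), and 6 small-subunit genes passed. With a trended and robust variance 15 passed and 7 rose (10 with an intron, 5 without; 63.6% of all genes), and 17 small-subunit genes. With array weights 12 passed and 6 rose (9 with an intron; 65.1% of all genes). All 7 calls were kept under both. At a threshold of 0.01, 3 passed, 3 lower and 0 higher (RPL22B, RPL26B and RPL21B; 3 with and 0 without an intron), with 2 chaperones, 9 assembly factors and 2 small-subunit genes. Quantile normalization gave 2 rises (RPL40B added), and plain probe sets alone 2 rises and 4 genes without an intron. With each array left out, 5 to 10 genes passed and 0 to 5 rose, 3 to 6 with an intron and 1 to 4 without, and small-subunit genes 6 to 9. No named large-subunit difference that passed changed sign under these alternatives, and the list medians moved by less than the spread between arrays. The median absolute difference of 0.04 is near the SE of a gene, so changes of that size could not be seen here. In the counts above the smallest change that passed was 0.14 (RPL43B). RPL40B at 0.14 and RPL26A at 0.13 did not pass.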
